A study of Mus musculus with 7 samples.

Results

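The myeloid fate transcription factors described here are 9 genes, chosen by name: the C/EBP family members Cebpa, Cebpb, Cebpd, Cebpe and Cebpg, the PU.1 gene Spi1, the interferon regulatory factor gene Irf8, and the zinc finger repressor genes Gfi1 and Gfi1b. All 9 were found among the 39179 Ensembl gene IDs of the deposited table, each at 1 ID. Expression was measured by bulk RNA-seq in LSK cells, the bone marrow fraction that lacks lineage markers, carries Sca-1 and Kit, and contains blood stem cells and early progenitors. The tested animals carried both Jmjd1c f/f and Vav1Cre (3 libraries, called Jmjd1c 1 to 3), and the controls carried Vav1Cre alone (4 libraries, called control 1 to 4), so every library comes from Cre-bearing mice. All mice were C57/BL6 and 7 weeks old, and the Vav1 promoter drives Cre in blood cells in general, not in LSK cells alone. Whether a library is 1 animal is not stated in the labels, so a p-value here measures the spread between libraries, which may be technical. Values are normalized read counts, that is, reads per gene divided by 1 size factor per library, as deposited.

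C/EBP proteins are basic leucine zipper factors that bind DNA as dimers. C/EBP-alpha and PU.1 together open the granulocyte and monocyte programme in multipotent progenitors, and the balance between PU.1 and GATA factors is a classic switch between myeloid and erythroid fates. IRF8 steers progenitors to monocytes and dendritic cells and holds back granulocyte output, whereas GFI1 represses monocyte genes in favour of granulocytes. GFI1 and its relative GFI1B recruit the demethylase LSD1 and the CoREST complex through a short N-terminal domain, and GFI1B is the dominant member in the erythroid and megakaryocyte lineages.

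The libraries held 4303712 to 6436519 reads in genes. Jmjd1c itself was at 294, 244 and 254 in Jmjd1c 1 to 3, against 458, 466, 516 and 512 in controls 1 to 4, and its log2 fold change was -0.89 ± 0.09 (SE), with an adjusted p of 0.00407 in limma. Kit, a marker that defines LSK cells, was abundant in every library, at 5880 to 7268 in the Jmjd1c libraries and 4778 to 6700 in the control libraries. Cd34, which is on the written list of LSK markers but does not define LSK cells, had 8003 to 8815 and 7850 to 8564 in the same order of groups. All 12 markers on that list were tested: 6 lay above 0 in log2 fold change and 6 below, and limma called 0. The 2 with the smallest p went opposite ways. Gata2 was higher in the Jmjd1c libraries (0.54 ± 0.15; limma, adjusted p = 0.0815) and Flt3 lower (-0.25 ± 0.09; adjusted p = 0.157). Jmjd1c 3 stood apart by sex-linked genes: Xist was 2767 in it, against 4.14 and 9.27 in Jmjd1c 1 and 2 and 6.40 to 9.32 in the controls, and the Y-linked genes Ddx3y, Eif2s3y and Uty had 0 reads in it and over 250 normalized read counts in each of the other 6 libraries. All 9 factors lie on autosomes, but the sex of Jmjd1c 3 and the other properties of that library cannot be told apart. Control 4 stood apart by macrophage genes: the 13 of a written list summed to 11713 in it, against 2605 to 4660 in the Jmjd1c libraries and 2932 to 4141 in controls 1 to 3, and none of the 13 was at 0 in all libraries.

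The order of the factors was compared as normalized read counts per kb of exonic length, since reads scale with length. Over the 7 libraries the mean level per kb was 156 for Gfi1b, 80.2 for Irf8, 73.9 for Spi1, 41.5 for Cebpg, 40.4 for Cebpe, 10.9 for Cebpa, 10.6 for Gfi1, 6.36 for Cebpb and 1.39 for Cebpd. Gfi1b lay above 82.7% of the tested genes on this scale, Spi1 above 66.8%, Cebpa above 20.3% and Cebpd above 0.694%. Gfi1b was above Irf8 per kb in 7 of 7 libraries, Spi1 above Cebpg in 7 of 7, and Cebpe above Cebpa in 7 of 7, and in the last pair and in that of Spi1 with Cebpg the ranges did not meet. Irf8 and Spi1 (that order in 5 of 7 libraries), Cebpg and Cebpe (5 of 7) and Cebpa and Gfi1 (3 of 7) were neighbours that their spread over libraries did not separate. Gfi1b, Irf8 and Spi1 were thus the highest per kb and the granulocyte drivers Cebpa and Gfi1 lower, in both groups. The order depends on the length used, that of all annotated exons of a gene merged, which was 7055 bases for Irf8 and 1830 for Gfi1b. Before division by length, Irf8 was above Gfi1b in every library. Other definitions of length were not tested. Cebpa averaged 12.5 ± 4.67 per kb in the Jmjd1c libraries and 9.64 ± 2.81 in the control libraries, while Gfi1b averaged 177 ± 47.8 and 140 ± 14.7 in the same order (SD, n = 3 and 4).

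**Figure D1:**
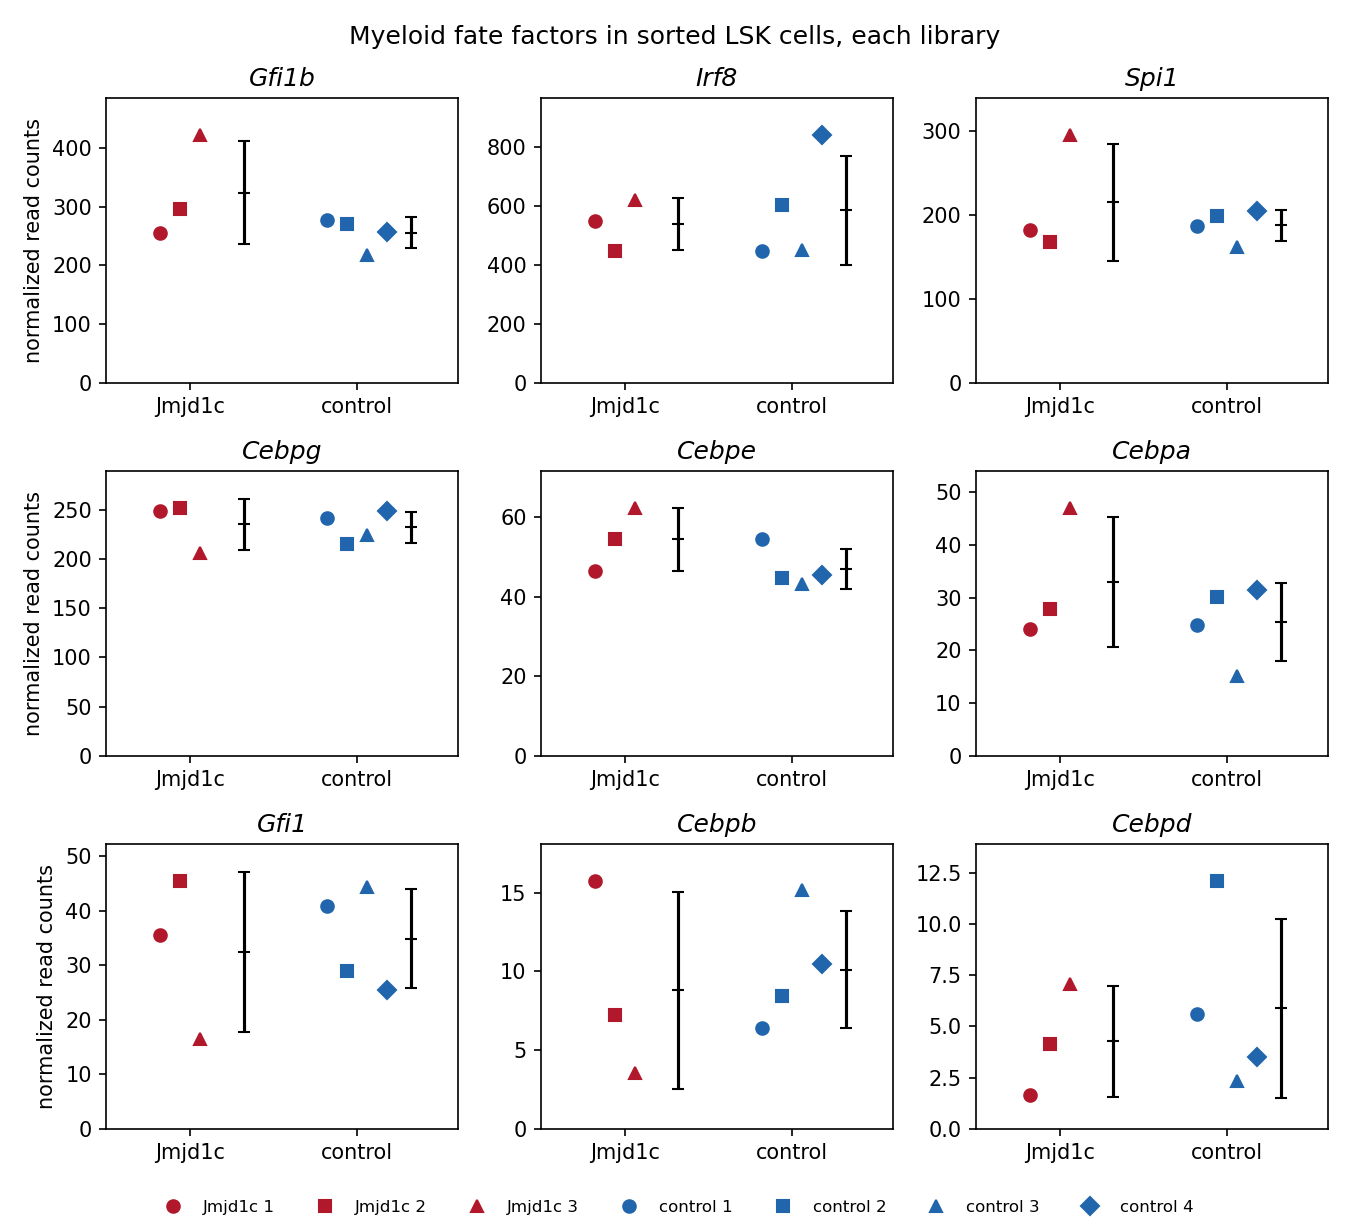
Normalized read counts of the 9 factors in each library, ordered by level per kb, with Jmjd1c libraries in red left of control libraries in blue and the mean ± SD of each group in black. Each y axis starts at 0 and has its own range. Jmjd1c 3, the red triangle, is the highest library for Gfi1b, Spi1, Cebpe and Cebpa and the lowest for Cebpg, Gfi1 and Cebpb.

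Among the C/EBP genes, Cebpa (ENSMUSG00000034957; mm10 chromosome 7, 35119293 to 35121928, plus strand), whose product starts granulocyte and monocyte commitment, stood at 24.0, 27.8 and 47.0 normalized read counts in Jmjd1c 1 to 3, beside 24.8, 30.2, 15.2 and 31.5 in controls 1 to 4. Jmjd1c 3 was the highest and control 3 the lowest, and the other 5 libraries lay between 24.0 and 31.5. The group means were 32.9 ± 12.3 and 25.4 ± 7.42 (SD, n = 3 and 4), and the log2 fold change of 0.35 ± 0.31 (SE) did not pass (limma, adjusted p = 0.558), with a 95% interval of the fold from 0.798 to 2.05. These values rest on 201 reads in all, 96 in the Jmjd1c and 105 in the control libraries. The exact 95% Poisson interval of Jmjd1c 3, 33.6 to 64.0, overlapped that of control 4, 22.05 to 43.6, and intervals of this kind cover counting error only. Without Jmjd1c 3 the log2 fold change of Cebpa was 0.07 ± 0.32.

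Cebpa is a gene of 1 exon with 61.2% GC in its transcript, and the bases before its start are rich in GC as well. They are shown for that GC content only. The adjustment for GC content and length given below used the transcript of Cebpa and not these bases. The 250 bases upstream of its RefSeq start (GRCm38.p6, chr7:35119043-35119292, plus strand) read 5′ to 3′ as follows, in lower case throughout since none of the motifs searched was present.
Cebpa promoter: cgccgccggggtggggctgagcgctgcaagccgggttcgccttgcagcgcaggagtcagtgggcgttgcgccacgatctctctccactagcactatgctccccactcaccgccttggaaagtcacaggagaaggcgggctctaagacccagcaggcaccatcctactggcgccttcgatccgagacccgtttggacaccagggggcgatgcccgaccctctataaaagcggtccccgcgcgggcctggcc
The whole 300-base window, 250 before and 50 after the start, had 67.3% GC and lay above 86.2% of the 32851 mouse promoter windows in GC content, whose median was 52.7%. With smooth trends over transcript GC content and exonic length removed from each library (the GC and length adjustment), the log2 fold change of Cebpa was 0.05 ± 0.28. The corrected values were 23.3, 24.7 and 37.3 in the Jmjd1c libraries against 27.0, 32.04, 17.3 and 34.1 in the control libraries, so that Jmjd1c 3 was still the highest but by less. The genes called higher in the whole table had a median transcript GC content of 55.3%, against 49.8% for all tested genes. The part of GC content in the value of Cebpa was not tested beyond this correction.

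Cebpe (ENSMUSG00000052435; chromosome 14, 54710360 to 54712174, minus strand), the factor of late granulocytes and their secondary granules, had 46.3, 54.6 and 62.2 in Jmjd1c 1 to 3, against 54.4, 44.7, 43.1 and 45.5 in controls 1 to 4. Control 1 lay within the Jmjd1c range and the other 3 controls below it. In limma its log2 fold change was 0.21 ± 0.18 (adjusted p = 0.551; fold interval 0.881 to 1.51), and -0.044 after the GC and length adjustment. The spread of Cebpe within groups, 12.7% of its mean, was no larger than the 14.2% that counting alone gives at 37 to 68 reads per library.

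Cebpg (ENSMUSG00000056216; chromosome 7, 35046422 to 35056573, minus strand) encodes a short C/EBP that lacks the usual activation domain and works as a dimer partner of C/EBP and ATF proteins. It was the steadiest of the 9 genes, at 249, 251 and 205.5 in the Jmjd1c libraries and 242, 215, 224 and 248 in the control libraries. Group means were 235 ± 25.9 and 232 ± 15.5, 0.02 ± 0.10 apart on the log2 scale (limma, adjusted p = 0.948). The fold interval, 0.865 to 1.182, was the narrowest among the factors tested.

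Cebpb (ENSMUSG00000056501; chromosome 2, 167688915 to 167690418, plus strand), the C/EBP of emergency granulopoiesis and macrophages, was near the lower limit of the test. Its values were 15.7, 7.21 and 3.52 in Jmjd1c 1 to 3, against 6.40, 8.45, 15.2 and 10.5 in controls 1 to 4. The ranges overlap, with Jmjd1c 3 below every control and Jmjd1c 1 above every control, and the whole data set holds 69 reads of the gene. The difference was -0.32 ± 0.47 on the log2 scale and did not pass (limma, adjusted p = 0.741), and it was 0.13 ± 0.45 without Jmjd1c 3. Its transcript had the highest GC content of the 9, 67.2%. Cebpd (ENSMUSG00000071637; chromosome 16, 15887286 to 15891031, plus strand), an acute-phase relative, did not reach 10 normalized read counts in 3 libraries and was not tested. It had 1.65, 4.12 and 7.04 in Jmjd1c 1 to 3 and 5.6, 12.1, 2.33 and 3.50 in controls 1 to 4, from 12 and 23 reads. A 312-base stretch of the Cebpb exon is also exon of Tmem189 on the opposite strand, and 562 bases of Cebpd are exon of Spidr, which had 284 to 404 normalized read counts per library. The strand setting of the counting is not known here, so reads in those stretches are uncertain.

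Spi1 (ENSMUSG00000002111; chromosome 2, 91082390 to 91115756, plus strand), which encodes PU.1, the ETS factor that both myeloid and lymphoid progenitors need, had 182, 167 and 295 in Jmjd1c 1 to 3. Controls 1 to 4 had 186, 198, 162 and 204. The first 2 Jmjd1c libraries lay inside the control range, and Jmjd1c 3 lay above all others. Means were 215 ± 69.8 and 188 ± 18.5, or 0.15 ± 0.17 on the log2 scale (limma, adjusted p = 0.664; fold interval 0.853 to 1.45), and the sign turned without Jmjd1c 3, at -0.10 ± 0.12. With 1402 reads in all, the spread of Spi1 within groups, 23.3% of its mean, was 3.25 times what counting alone gives.

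Irf8 (ENSMUSG00000041515; chromosome 8, 120736358 to 120756694, plus strand), the factor of monocytes and dendritic cells, had the most reads of the 9, 4034. Its level was 548, 446 and 621 in Jmjd1c 1 to 3, against 449, 605, 450 and 841 in controls 1 to 4. Control 4 was the highest library, and all 3 Jmjd1c values lay between the lowest control and control 4 except that of Jmjd1c 2, which was just below the controls. Means were 538 ± 87.8 and 586 ± 185, and -0.09 ± 0.20 on the log2 scale did not pass (limma, adjusted p = 0.844; fold interval 0.701 to 1.27). Without control 4 it was 0.10 and without Jmjd1c 2 it was 0.043, so the sign rests on either library. Control 4 is also where macrophage genes were high, with Adgre1, which encodes F4/80, at 1381 against 279 to 516 in the Jmjd1c libraries and 316 to 489 in controls 1 to 3. Mature macrophages and dendritic cells express Irf8 too, and the part of such cells in the Irf8 value of control 4 was not tested. In bulk RNA, more cells of a type and more RNA per cell cannot be told apart.

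The first RefSeq promoter window of Irf8 is shown because, of the 8 windows found for these factors, it alone matched a GFI1 pattern searched here. The windows cover 6 of the 9 genes. Motifs were searched as letters on both strands: TTGCNNAA for C/EBP, GAGGAAGT and AGAGGAAG for PU.1, and AAATCAC and AATCANNGC for GFI1. In the 250 bases upstream of the Irf8 start (GRCm38.p6, chr8:120736108-120736357, plus strand) the capitals mark 1 match to each GFI1 pattern, both on the minus strand, beginning at positions -176 and -127 from the start.
Irf8 promoter: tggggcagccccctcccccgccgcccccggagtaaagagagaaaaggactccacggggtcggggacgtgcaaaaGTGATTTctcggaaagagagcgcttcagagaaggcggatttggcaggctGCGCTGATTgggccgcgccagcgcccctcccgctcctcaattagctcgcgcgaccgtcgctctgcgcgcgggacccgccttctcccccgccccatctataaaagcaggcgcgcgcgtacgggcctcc
Of all mouse windows of the same length, 3.20% held AAATCAC and 3.28% held AATCANNGC. Of the other windows, the first of Gfi1 held 1 C/EBP match (TTGCTGAA at -143), a pattern found in 10.8% of all windows, and no PU.1 pattern was present in any of the 8. A match is a description of letters and not a binding site.

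Gfi1 (ENSMUSG00000029275; chromosome 5, 107716657 to 107726036, minus strand), the repressor that favours granulocytes over monocytes and restrains stem cell cycling, had 35.6, 45.3 and 16.4 in Jmjd1c 1 to 3, against 40.8, 29.0, 44.3 and 25.4 in controls 1 to 4. Jmjd1c 3 was the lowest of the 7 and Jmjd1c 2 the highest, so the Jmjd1c libraries spanned the whole range. On the log2 scale the groups differed by -0.18 ± 0.33 (limma, adjusted p = 0.806; fold interval 0.534 to 1.46) and became 0.24 ± 0.27 without Jmjd1c 3. Jmjd1c 3 held 14 reads of Gfi1, with an exact 95% Poisson interval of 8.99 to 27.6 normalized read counts. That interval stayed below the lower bounds of Jmjd1c 2 (32.9), control 1 (30.4) and control 3 (31.3). It overlapped the intervals of Jmjd1c 1 (from 25.8), control 2 (from 18.6) and control 4 (from 17.0).

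Gfi1b (ENSMUSG00000026815; chromosome 2, 28609450 to 28621982, minus strand), the repressor of the erythroid and megakaryocyte side, had 255, 296 and 423 in Jmjd1c 1 to 3, against 278, 272, 218 and 258 in controls 1 to 4. Jmjd1c 2 and 3 lay above all controls and Jmjd1c 1 lay inside their range. It was the factor nearest the threshold, with means of 324 ± 87.5 and 256 ± 26.8 and a log2 fold change of 0.31 ± 0.15 (limma, unadjusted p = 0.0666, adjusted p = 0.290; fold interval 0.983 to 1.57). A two-sided exact permutation test of this gene alone gave p = 0.2, where 3 against 4 libraries allow no value under 0.0286. Without Jmjd1c 3 the log2 fold change was 0.11 ± 0.12, and without Jmjd1c 1 it was 0.47. GFI1 represses Gfi1b in mouse blood cells, as background. In Jmjd1c 3 the highest Gfi1b value stood beside the lowest Gfi1 value, which rests on 14 reads. Yet Jmjd1c 2 paired the highest Gfi1 value, 45.3, with a Gfi1b value above all controls, 296. The log2 ratio of Gfi1b to Gfi1 reached 4.603 for Jmjd1c 3. Jmjd1c 1 and 2 gave 2.81 and 2.68, and the controls gave 2.27 to 3.30. Whether the level of Gfi1 bears on that of Gfi1b here was not tested.

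The upstream bases of Gfi1b are shown as the contrast to those of Cebpa: its window was the poorest in GC of the 8, with 44.3%, and Gfi1b is the most abundant of the factors per kb. The contrast is 1 of promoters only, since the transcript of Gfi1b had 57.0% GC and the adjustment used transcripts. The 250 bases upstream of its RefSeq start (GRCm38.p6, chr2:28621983-28622232, minus strand) held none of the full patterns searched. Shorter cores of those patterns were not searched.
Gfi1b promoter: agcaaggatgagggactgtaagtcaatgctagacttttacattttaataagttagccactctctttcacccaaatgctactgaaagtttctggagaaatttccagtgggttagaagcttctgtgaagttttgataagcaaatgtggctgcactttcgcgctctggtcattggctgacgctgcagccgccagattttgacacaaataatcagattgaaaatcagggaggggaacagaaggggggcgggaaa
After the GC and length adjustment the log2 fold change of Gfi1b was 0.24 ± 0.14, and that of Spi1 0.07 ± 0.16, so both kept their sign. The same adjustment moved others away from 0: Cebpb to -0.64 ± 0.50, Gfi1 to -0.35 ± 0.34 and Irf8 to -0.22 ± 0.19, none of which passed (limma, adjusted p = 0.549 to 0.636). Cebpg was 0.05 ± 0.10.

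Across the factors, then, no member passed the test. Of the 9, 8 entered it and 0 were called by limma at an adjusted p under 0.05, while 1.8% of all 12813 tested genes were called (1.51% higher and 0.289% lower). At an unadjusted p under 0.05 there were 0 of the 8 factors, against 19.7% of all tested genes, the share against which the unadjusted counts of the gene lists are to be read. On the recovered reads edgeR called 0 of 8, with 0 at an unadjusted p under 0.05. DESeq2 called 0 of the 7 factors to which it gave an adjusted value, all but Cebpb. In DESeq2, 1 factor had an unadjusted p under 0.05, Gfi1b (adjusted p = 0.274). Groups did not overlap in 0 of the 8, against 16.8% of all tested genes. The median log2 fold change was 0.08, with 5 above and 3 below 0, beside -0.01 for all tested genes. A miss does not show equal levels: the 95% intervals still allow a fold of 1.182 for Cebpg, 1.57 for Gfi1b and 2.05 for Cebpa on the higher side, and of 0.853 for Spi1, 0.701 for Irf8 and 0.534 for Gfi1 on the lower side.

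**Figure D2:**
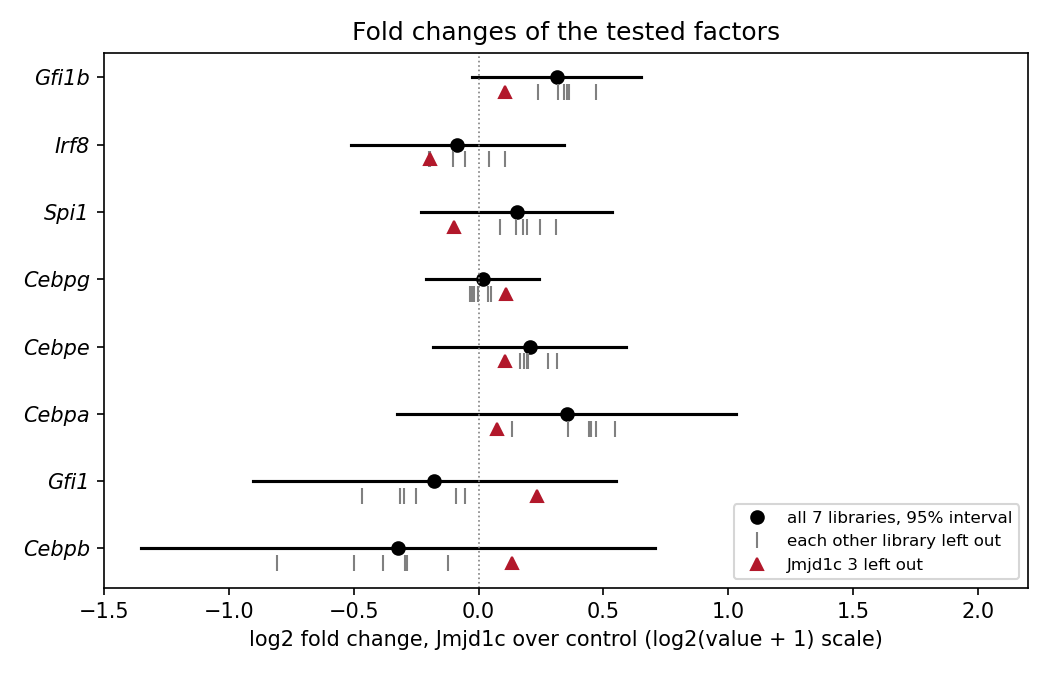
Log2 fold change of the 8 tested factors, Jmjd1c over control, with the 95% interval from limma on all 7 libraries (black), the value with Jmjd1c 3 left out (red triangles) and with each other library left out (grey ticks). Every interval includes 0, and the triangles of Spi1, Gfi1 and Cebpb lie on the other side of 0 from their black points.

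Jmjd1c 3 held the highest value of the 7 for 4 of the 8 tested factors (Cebpa, Cebpe, Spi1 and Gfi1b) and the lowest for 3 (Cebpb, Cebpg and Gfi1), that is 87.5% of them, where it held an extreme value for 41.0% of all tested genes. Relative to the mean of Jmjd1c 1 and 2 on the log2 scale, Jmjd1c 3 differed by 0.84 for Cebpa, 0.75 for Spi1, 0.62 for Gfi1b, -1.24 for Gfi1 and -1.37 for Cebpb. It differed less for Irf8 (0.33), Cebpe (0.30) and Cebpg (-0.28). The values of Gfi1 and Cebpb in Jmjd1c 3 rest on 14 and 3 reads. The median absolute difference of all tested genes, not matched for read count, was 0.17. After the GC and length adjustment it was extreme for 6 of the 8, all but Cebpe and Irf8. Control 3 was the lowest library for the 4 factors for which Jmjd1c 3 was the highest, where it was lowest for 16.6% of all tested genes. After the adjustment control 3 was the lowest for Cebpa and Gfi1b and the highest for Cebpb and Gfi1. In Jmjd1c 3, markers of other cells differed too, in different directions: the 10 basophil and mast cell genes summed to 2290, against 4315 and 4796 in Jmjd1c 1 and 2 and 5940 to 9106 in the controls, and the 11 B and plasma cell genes to 30579, against 12458 and 10332, and 19455 to 29500 in the controls. Their part in the values of the factors was not tested.

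**Figure D3:**
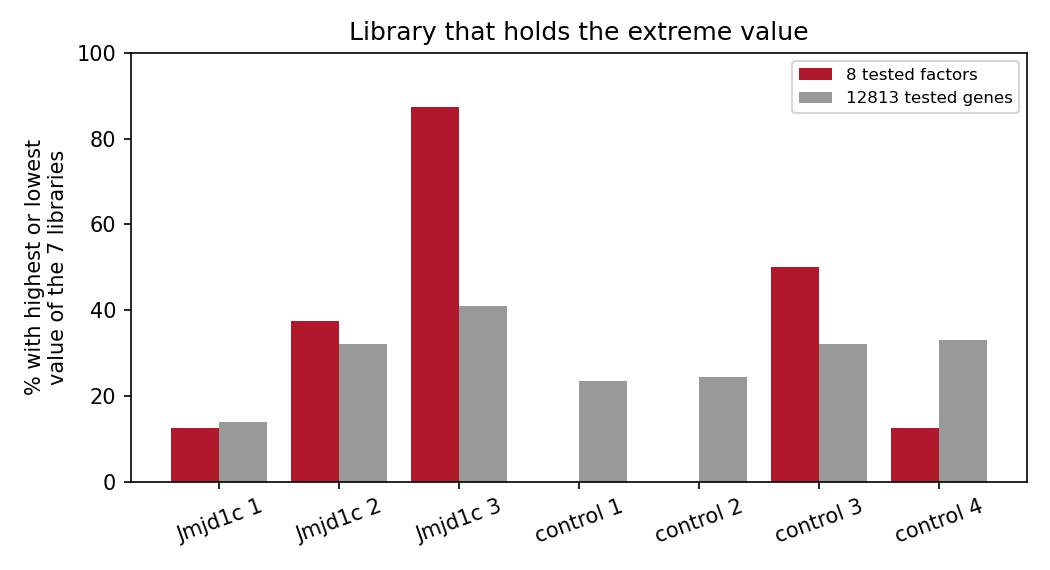
Share of genes for which each library held the highest or lowest of the 7 values, for the 8 tested factors (red) and all 12813 tested genes (grey), Jmjd1c libraries first. Jmjd1c 3 has 87.5% of the factors and 41.0% of all genes, and control 1 and control 2 have 0 of the factors.

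Genes that these factors are known to control in granulocyte and monocyte progenitors were counted next. Of 20 genes under C/EBP-alpha and PU.1, all tested, 15 lay below 0 and 5 above. Their median log2 fold change was -0.36, beside -0.01 for all tested genes. In limma 14 of the 20 had an unadjusted p under 0.05, and most of these were lower in the Jmjd1c libraries. Csf3r (0.24 ± 0.07) and Csf2ra (0.43 ± 0.20) were the only genes among the 14 that were higher. At the adjusted threshold 4 fell and 16 did not pass. The 4 were the monocyte antigen gene Ly6c2 (-0.80 ± 0.08), the lectin receptor gene Clec12a (-0.76 ± 0.13), the transglutaminase gene F13a1 (-0.63 ± 0.12) and the granule protease gene Ctsg (-0.46 ± 0.10), with limma adjusted p-values of 0.00407 to 0.0468. This list was written knowing that these genes had been lower, so its count is no independent evidence. Ly6c2 had 794, 640 and 758 in the Jmjd1c libraries, against 1239, 1320, 1168 and 1339 in the control libraries. For Ly6c2 the value of Jmjd1c 3 lay between those of Jmjd1c 1 and 2, and all 3 lay below every control. Without Jmjd1c 3 the median of the list was -0.46 and 1 of its genes, Ly6c2, was called, and after the GC and length adjustment the median was -0.39 and 3 were called. Without control 4 the median was -0.24 and 5 were called, the same 4 and the elastase gene Elane, which is named after its value was seen. Markers of other cells were measured beside this list. The 13 tested mature neutrophil genes had a median of -0.32 with none called, their sums being 8630 to 11546 in the Jmjd1c libraries and 11356 to 14891 in the control libraries, and 13 macrophage genes had a median of -0.43 with none called, which was -0.076 without control 4. Of 8 tested basophil and mast cell genes 2 fell, the chemokine gene Ccl3 (-1.15 ± 0.21) and the protease gene Prss34 (-1.12 ± 0.23), with a median of -0.995 for the list and of -0.60 without Jmjd1c 3, where neither gene was called. Of 11 B and plasma cell genes 1 fell, the antibody gene Igha (-2.29 ± 0.46), with a median of -0.99 for the list, of -1.48 without Jmjd1c 3 and of -0.15 over the genes that pass a filter of 50. The limma adjusted p-values of these 3 genes were 0.0343 to 0.0410. The part of such cells was not tested.

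Of 14 genes listed as secondary granule genes under C/EBP-epsilon, 13 were tested, with 1 above 0 and 12 below. The gene above 0 was Padi4, which encodes a histone-citrullinating enzyme and not a granule protein, and it rose (0.90 ± 0.14, limma, adjusted p = 0.0292). The secreted chitinase-like gene Chil3 fell (-0.59 ± 0.11, limma, adjusted p = 0.0343). The other 11 did not pass (median of the list -0.38, with 8 of the 13 at an unadjusted p under 0.05). After the GC and length adjustment Padi4 was still called (0.79, adjusted p = 0.0275) and Chil3 was not (-0.45, adjusted p = 0.0656). Without Jmjd1c 3 Padi4 was 0.73 (adjusted p = 0.0526) and Chil3 -0.70 (adjusted p = 0.0605) in limma. Padi4 had 677, 816 and 1073 in the Jmjd1c libraries, against 406, 459, 512 and 424 in the control libraries, which did not overlap. Of 14 tested monocyte and dendritic genes under IRF8, 0 passed (limma; 2 at an unadjusted p under 0.05), with a median of -0.45, which was -0.15 without control 4. The 2 with the smallest p were Mpeg1, a macrophage pore-forming protein gene, at -0.86 ± 0.30 (adjusted p = 0.147), and Id2, an inhibitor of E proteins, at -0.63 ± 0.23 (adjusted p = 0.169). Control 4 had the highest value of both, 411 and 739. The list summed to 81067 normalized read counts in control 4, against 21972 to 34668 in the Jmjd1c libraries and 22288 to 32408 in controls 1 to 3.

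Partners and targets of the GFI repressors did not pass. Of 12 tested repressor partners 0 were called (limma; 2 at an unadjusted p under 0.05), with a median of 0.11. Gse1, a CoREST-associated protein gene, had 0.45 ± 0.13 (adjusted p = 0.0939) and the H3K9 methyltransferase gene Ehmt2, which encodes G9a, had 0.59 ± 0.21 (adjusted p = 0.153), values of 0.09 and 0.29 after the GC and length adjustment. Of 13 tested genes that GFI1 or GFI1B represses 0 were called (4 at an unadjusted p under 0.05; median -0.03), with the co-receptor gene Tgfbr3 at 0.64 ± 0.17 (limma, adjusted p = 0.0800) and the cell cycle inhibitor gene Cdkn1a at 0.54 ± 0.18 (adjusted p = 0.148).

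Relatives and regulators of the factors gave few calls. None of 20 tested C/EBP regulators and basic leucine zipper relatives passed (limma; 3 at an unadjusted p under 0.05; median 0.05). Among them Atf4, the stress factor that pairs with C/EBP proteins, had -0.21 ± 0.07 (adjusted p = 0.153), and Trib2, which targets C/EBP-alpha for degradation, had 57.1, 80.4 and 178 in the Jmjd1c libraries against 59.2, 44.7, 62.9 and 44.6 in the control libraries (0.83 ± 0.32; limma, adjusted p = 0.182). Trib2 was thus highest in Jmjd1c 3, where Cebpa was also highest. None of 13 tested ETS relatives of PU.1 passed (2 at an unadjusted p under 0.05; median 0.02), with Ets2 at 0.85 ± 0.22 (limma, adjusted p = 0.0631) and Elk3 at -0.19 ± 0.09 (adjusted p = 0.249). None of the other 8 IRF genes passed, and 0 had an unadjusted p under 0.05 (median -0.14), with Irf4 at -0.76 ± 0.39 (limma, adjusted p = 0.305) and Irf3 at 0.19 ± 0.10 (adjusted p = 0.319). Of 17 other tested myeloid regulators 1 rose, Myb, the factor of progenitor proliferation (0.43 ± 0.08; limma, adjusted p = 0.0343), and 16 did not pass (median -0.06). Without Jmjd1c 3 Myb was 0.38 (limma, adjusted p = 0.121).

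Factors of the competing lineages were compared for the same reason. Of 12 erythroid, megakaryocyte and mast cell factors 0 passed (limma; 5 at an unadjusted p under 0.05), with a median of 0.23, and of 0.07 after the GC and length adjustment. Gata1, the master factor of erythroid cells and megakaryocytes, had 154, 163 and 201 in the Jmjd1c libraries, all above the 125, 126, 126 and 120 of the control libraries (0.46 ± 0.12; limma, adjusted p = 0.0642). Gata2, of stem and mast cells, had 0.54 ± 0.15 (adjusted p = 0.0815). The log2 ratio of Spi1 to Gata1 was 0.24, 0.04 and 0.55 in Jmjd1c 1 to 3, against 0.57, 0.65, 0.36 and 0.76 in controls 1 to 4. Those ranges overlap through Jmjd1c 3, and the ratio is given as a description. The log2 ratio of Irf8 to Gfi1 averaged 4.11 ± 0.96 and 4.02 ± 0.80 (SD, n = 3 and 4). Of 12 tested lymphoid factors 1 rose, the E protein gene Tcf3 (0.83 ± 0.16; limma, adjusted p = 0.0374), and 11 did not pass (median -0.02). Tcf3 was 0.68 without Jmjd1c 3 (limma, adjusted p = 0.128) and 0.49 after the GC and length adjustment (adjusted p = 0.125).

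**Figure D4:**
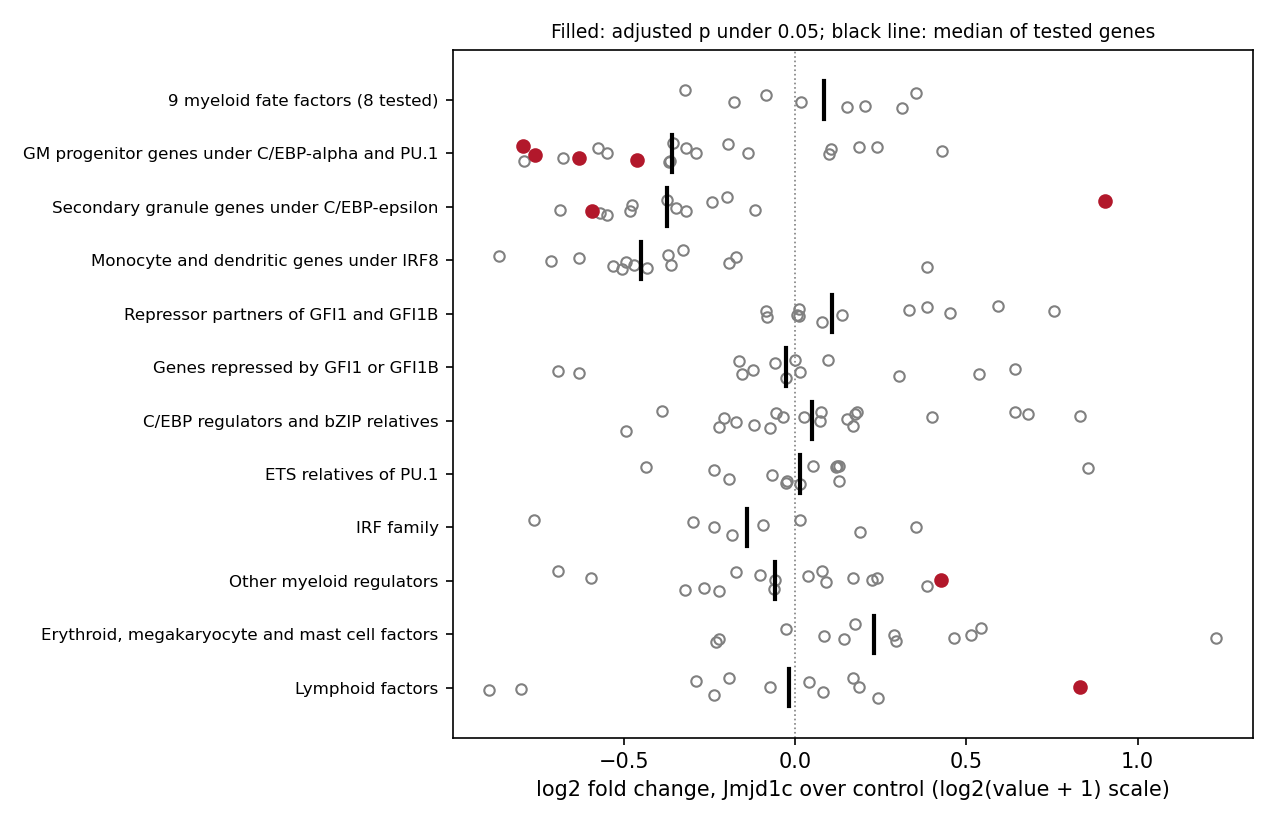
Log2 fold changes, Jmjd1c over control, of the tested factors and of the genes in 11 written lists. Each circle is a gene, filled red where its limma adjusted p is under 0.05, with a black line at the list's median. The factors have a median of 0.08 and no filled circle, and 4 of the 20 genes under C/EBP-alpha and PU.1 are filled, all below 0.

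The genes with the profile nearest to each factor were found by the root mean square distance of log2(value + 1) over the 7 libraries, after centring each gene on its mean. For Cebpa they were Metrn (0.12) and Csf2ra (0.13). Csf2ra, which encodes the alpha chain of the GM-CSF receptor, had 137, 153 and 210 in the Jmjd1c libraries against 125, 135, 86.3 and 150 in the control libraries. For Spi1 they were Ebpl (0.08) and Plxnd1 (0.09), and Plxnd1, a semaphorin receptor gene, had 203 in Jmjd1c 3 against 109 to 159 in the other libraries. For Irf8 they were the ATP-gated channel gene P2rx4 (0.05) and Tulp4 (0.09), both highest in control 4, as Irf8 was. For Gfi1b they were Atp10a (0.04) and Hook2 (0.05), both highest in Jmjd1c 3. The nearest to Cebpg were Xpo1 and Cenpu (0.03 each), to Cebpe Clns1a and Papola (0.05 each), to Gfi1 Cpeb2 (0.14) and Kif5a (0.16), and to Cebpb Hist3h2a (0.23) and Cib2 (0.25).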

How the data were processed

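The deposited table gives a signal per gene and library, from 4 control and 3 Jmjd1c libraries. Per the submitters' processing notes the authors used Trim Galore 0.2.8, STAR, HTSeq 0.6.1p1, DESeq 1.18.0 and mm10; what each step did, the annotation and the strand setting were not found in these notes. Per the labels, RNA was extracted with Trizol and amplified with a SMARTer ultra-low-input kit. Signal values of a deposited column share 1 step, the worth of 1 read, and division by it gave whole reads (within 0.01) for 100% of values; edgeR on these reads called 233 genes. Symbols matched 37607 of 39179 IDs. Positions, length and GC content came from GENCODE M21 (GRCm38, the assembly named mm10), and promoters from RefSeq (GRCm38.p6).

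The test was limma-trend (limma 3.58.1, R 4.3.3) on log2(value + 1) for the 12813 genes with at least 10 in at least 3 libraries, Benjamini-Hochberg adjusted over them, threshold 0.05. Fold changes on this scale understate the change of low genes. edgeR 4.0.16 and DESeq2 1.42.0 on recovered reads, other scalings, pseudocounts, filters, a replicate block and leaving out each library were alternatives. The GC and length correction used mgcv 1.9.3 and left out 136 genes. The fit was also run on counts simulated for each gene separately. Apart from depth, those counts held no property shared by a whole library, so they do not cover libraries such as Jmjd1c 3 or control 4. Members, lists and the rule for named genes (the factors, the 2 nearest profiles of each, and from each list up to 4 called genes or the 2 with the smallest p) were chosen with earlier results of these data known.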

Additional observations from a re-analysis of the deposited data

Results flagged for a closer look

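Of 61 values looked at among the 4 control libraries, 4 had a library far from the other 3, where chance gives about 1 in 20, and all 4 were control 4. Clec12a was 1351 normalized read counts in control 4, against 1003 to 1061 in controls 1 to 3. Id2 was 739 there, against 366 to 415. Hmox1, which encodes the heme oxygenase of iron-recycling macrophages, was 763, against 233 to 287. The 13 macrophage genes together summed to 11713, against 2932 to 4141. Irf8, the factor highest in the same library at 841, was not far enough from control 2 at 605 to be marked. Groups of 3 are not examined in this way, so the values of Jmjd1c 3 carry no such mark.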

How the results depend on the processing

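No factor was called in the 19 alternatives. Among these, the fit of replicates 1 to 3 without a block and the fit without control 4 are the same fit. Most tested the same 8 factors. The fit without a filter on low values took in Cebpd as well, DESeq2 gave 7 an adjusted p, and the filter of 50 left 5 (without Cebpa, Cebpb and Gfi1). The count of called genes over the whole table was 231 and moved to 590 with DESeq2, 59 after the GC and length adjustment, 0 without the intensity trend in limma (2213 at an unadjusted p under 0.05) and 16 with the replicate block, and when each library was left out it ran from 3 (without Jmjd1c 2, control 2 or control 3) to 624 (without Jmjd1c 1), with 9 without Jmjd1c 3 and 68 without control 1. The deviations of same-numbered libraries correlated at -0.05, -0.07 and -0.03 over genes, and those of differently numbered libraries at -0.05 to 0.10. Correlations this small, from 3 libraries per group, cannot settle whether same-numbered libraries were paired. The block over replicates 1 to 3 gave Irf8 0.10 and called no factor. The same libraries without a block called 202 genes and gave Irf8 0.10. Signs turned for Cebpe after the GC and length adjustment (-0.044), for Cebpg with quantile normalization (-0.011), and when libraries were left out for Spi1 (range -0.10 to 0.31), Gfi1 (-0.47 to 0.24), Cebpb (-0.81 to 0.13), Irf8 (-0.20 to 0.10) and Cebpg (-0.035 to 0.11). The cause was not tested. Cebpa ranged from 0.07 to 0.54, Cebpe from 0.10 to 0.31 and Gfi1b from 0.11 to 0.47, each lowest without Jmjd1c 3. The smallest adjusted p of any factor in any alternative was that of Gfi1b without Jmjd1c 1, 0.105. Without control 4 the medians of lists near 0 also moved: IRF genes to -0.065, other myeloid regulators to 0.047, ETS relatives to -0.042, C/EBP regulators to 0.0061 and GFI partners to 0.069. Depth limits Cebpb and Cebpd most, with 69 and 35 reads in all.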

Other observations

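The receptors through which myeloid growth factors act on cells with these factors did not share a direction, and none passed (limma, chosen after their values were seen). The receptor genes named here belong to the list under C/EBP-alpha and PU.1. Csf3r, the G-CSF receptor gene, had 1392, 1516 and 1304 normalized read counts in the Jmjd1c libraries, all above the 1219, 1166, 1249 and 1118 of the control libraries, with a log2 fold change of 0.24 ± 0.07 (adjusted p = 0.0983). Csf2ra had 0.43 ± 0.20 (adjusted p = 0.251). Csf2rb, the shared beta chain gene, had -0.20 ± 0.08 (adjusted p = 0.223), and Csf1r, the M-CSF receptor gene, had -0.32 ± 0.29 (adjusted p = 0.568), with 2090 in control 4 against 666 to 1093 in the Jmjd1c libraries and 722 to 1049 in controls 1 to 3. Klf1, the erythroid factor gene, had 38.9, 74.2 and 97.5 in the Jmjd1c libraries against 32.8, 45.9, 16.3 and 22.7 in the control libraries (1.23 ± 0.36; limma, adjusted p = 0.102). The written list of 10 erythroid markers that holds Klf1 did not share its direction. Of its genes 4 lay above 0 and 6 below, with a median of -0.10 and 0 called. Hbb-bt, of the same list, had -0.45 ± 0.22 (limma, adjusted p = 0.286).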
